A study of Mus musculus with 69 samples.

Results

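The Dlg and Dlgap genes encode scaffold proteins that lie beneath the excitatory synapse. They were followed here as 8 genes (Dlg1, Dlg2, Dlg3, Dlg4, Dlgap1, Dlgap2, Dlgap3 and Dlgap4) among the 52636 genes of an RNA count table, and as the peaks that carry their names in a pair of lists of histone H3 dimethylated at lysine 79 (H3K79me2). The genes were found by symbol, all 8 were in the table, and all 8 passed the filter on low counts that left 14016 genes for testing. The peaks numbered 1132 of 117819 distinct peaks in the Standard list and 916 of 106374 in the ELS list.

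All samples came from the nucleus accumbens of male mice, the ventral part of the striatum. RNA of whole tissue was sequenced in 32 libraries, 8 in each of 4 groups. The mice had been reared under Standard conditions or had met early life stress (ELS), and the labels give each a genotype of GFP, Dot1l overexpression or Dot1l knockdown. The groups were Standard GFP, ELS GFP, Standard Dot1l overexpression and ELS Dot1l knockdown. GFP is the green fluorescent protein and stands as the control, and Dot1l encodes the enzyme that methylates H3 at lysine 79. The study's design text speaks of D2-type medium spiny neurons, but the RNA is that of all cells of the tissue. The age of the mice, how the constructs were delivered and the share of cells that carried them are not in the labels. The labels name no animals, so p-values measure the spread between these libraries, which may be technical in part. The chromatin samples were labelled as 9 Standard and 9 ELS immunoprecipitations with 9 Standard and 10 ELS inputs, with no genotype given, and 1 peak list per rearing group was analysed.

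DLG proteins are membrane-associated guanylate kinases. Their PDZ domains hold the tails of NMDA receptors, potassium channels, neuroligins and the stargazin family that carries AMPA receptors, and their guanylate kinase-like domain binds the DLGAP proteins. DLGAP proteins, also called SAPAPs or GKAPs, in turn bind the SHANK proteins, which join Homer and the actin cytoskeleton deeper in the postsynaptic density. Dlgap3 is known for its high expression in the striatum and for the repetitive grooming of mice that lack it. H3K79me2 lies over the bodies of transcribed genes, mostly in their 5′ part.

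H3K79me2 peaks lay over most of these genes, and the extent differed widely between them. Coverage is the share of the gene, as the transcripts named in the lists bound it on mm10, that lies under peaks of the Standard list. Dlgap4 (chromosome 2, 156613705 to 156764363) was covered over 54.6% of its length and Dlg1 (chromosome 16, 31663443 to 31873356) over 45.5%. Dlg1 encodes SAP97, the DLG protein found in many tissues beside neurons. Dlgap2 (chromosome 8, 14095865 to 14847680) was covered over 41.3% by 351 peaks. Dlg2 (chromosome 7, 91090706 to 92449247), which encodes PSD-93, carried the most peaks of the 8 genes, with 556 peaks over 27.4% of its length. Dlg4 (chromosome 11, 70017085 to 70045532), which encodes PSD-95, the main DLG protein of mature excitatory synapses, was covered over 24.0% and Dlgap3 (chromosome 4, 127169204 to 127237022) over 23.4%. Dlgap1 (chromosome 17, 69969073 to 70821413), which encodes the founding member GKAP, had 80 peaks over only 5.2% of its 852.3 kb. The lists end Dlg2 at the transcripts they name, and RefSeq places its first start further upstream, at 90476188.

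Dlg3, the X-linked member that encodes SAP102, stood apart from the other 7. It had 1 Standard peak of 203 bases, at 100768045 to 100768248 and 0.424 kb inside the gene, with a fold enrichment of 1.87 in the authors' list, and no ELS peak. The whole X chromosome was nearly empty: it held 110 of the Standard peaks and 15 of the ELS peaks, against 3000 and 2775 on chromosome 19, the autosome with the fewest in each list. The absence at Dlg3 was therefore shared with the chromosome it lies on, and a lack of the mark at this gene alone cannot be read from it.

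Within the genes the peaks lay toward the 5′ end, with exceptions at Dlgap1, Dlgap2 and Dlgap4. Each gene, as the transcripts in the lists bound it, was divided into 10 equal bins from its 5′ end. For Dlg2 the bins span 1359 kb of the 1973 kb that RefSeq gives and leave out the upstream part. Its position in the RefSeq gene cannot be read from them. In the Standard list the first 5 bins held 100% of the covered length of Dlg4, 84.8% of that of Dlgap3, 82.5% of that of Dlg1 and 70.7% of that of Dlg2. Dlg1 was covered over 58.1% to 88.6% of each of its first 6 bins and over at most 4.15% of each later bin. Dlgap2 was covered most densely in the middle, with 68.5% of bin 5. Dlgap4 had a dense block at each end, 92.1% of bin 2 and 94.3% of bin 9. Dlgap1 had a pair of short blocks far apart, 20.1% of bin 1 and 20.6% of bin 7, with at most 3.89% of any bin between them. The ELS peaks lay mostly in the same bins and covered less of most of them (plot of coverage along the genes).

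**Figure D1:**
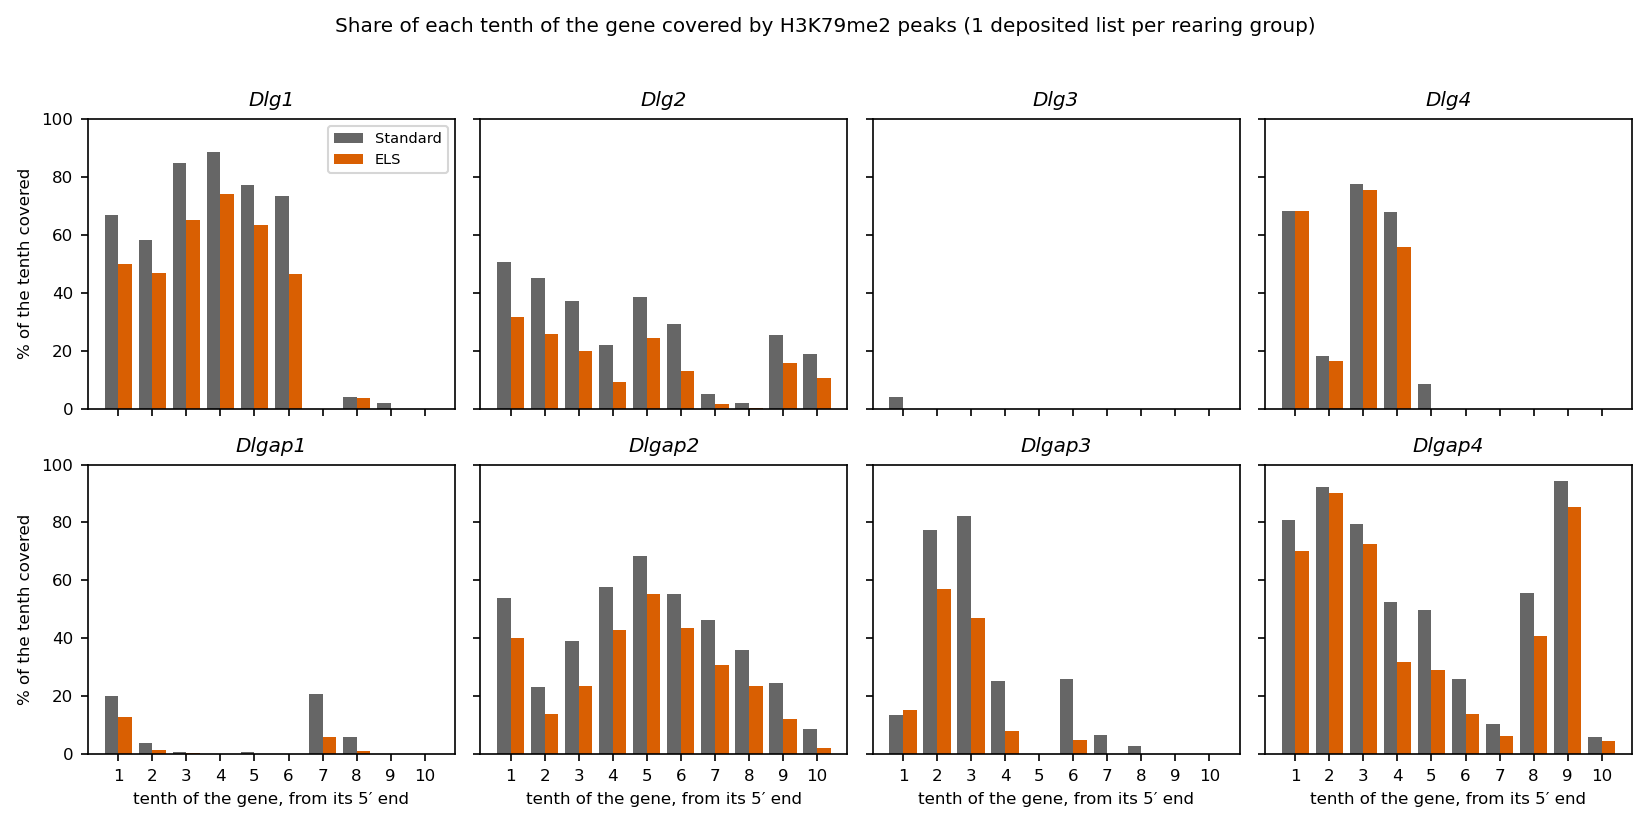
Share of each of 10 equal bins of the gene (x axis) that lies under H3K79me2 peaks (y axis, percent). Grey bars are the Standard list and orange bars the ELS list. Bins are counted from the 5′ end of the gene as the transcripts in the lists bound it. Dlg1 and Dlg4 were covered in their 5′ parts, Dlgap4 in a block at either end, and Dlg3 by 1 Standard peak only.

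The Standard peak of highest fold lay in the gene body rather than at a start for 6 of the 7 genes with more than 1 peak. Folds are the authors' own value for each peak and serve here only to rank peaks within a list. In the Standard list the highest fold at Dlgap4 was 3.12 (156620724 to 156621220, 7.27 kb from the first start), at Dlg1 3.05 (31724488 to 31728123, 62.9 kb), at Dlg2 2.79 (91110401 to 91111727, 20.4 kb), at Dlgap2 2.67 (14477955 to 14480747, 383 kb), at Dlgap1 2.47 (69983119 to 69984696, 14.8 kb) and at Dlgap3 2.33 (127180355 to 127181873, 11.9 kb). All 6 were annotated to the gene body. The strongest Standard peak of Dlg4, with a fold of 2.76 (70024218 to 70027551), was annotated within 1 kb of an internal start. In the ELS list the highest fold was 2.97 at Dlg1 (31745041 to 31747649), 2.73 at Dlg2 (92245830 to 92247189), 2.62 at Dlgap4 (156733775 to 156740376), 2.43 at Dlgap2 (14334604 to 14336127), 2.39 at Dlg4 (70024275 to 70026565), 2.29 at Dlgap3 (127175364 to 127176044) and 2.16 at Dlgap1 (70557695 to 70557911). Of these ELS peaks, the one at Dlgap1 overlapped no Standard peak, and the other 6 overlapped one.

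Peaks over a transcript start were few. At Dlg4, Standard peaks covered 4 starts, at 70017085, 70018864, 70026824 and 70030637, with folds of 2.06, 2.4, 2.76 and 1.82, while ELS peaks covered starts at 70017241 and 70018864 with folds of 2.18 and 2.13. At Dlgap3 a peak covered the first start, 127169204, in both lists, with a Standard fold of 2.23 and an ELS fold of 1.83. At Dlgap4 a peak covered the internal start at 156700622 in both lists (1.7 Standard, 1.69 ELS). Start peaks in 1 list only were the Standard peaks at Dlg2 (start 92180684, fold 1.92) and Dlgap2 (start 14179667, fold 1.87), and an ELS peak at Dlg1 (start 31664150, fold 2.32), which began 1 base before that start and overlapped a Standard peak.

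The RefSeq promoter windows used here number 16 for 7 of the genes, with none for Dlgap2. Each runs from 250 bases before a start to 50 after it (GRCm38.p6, the mm10 assembly). No window lies at the start 127169204 of Dlgap3 or 156700622 of Dlgap4, which peaks covered in both lists. Peaks at starts without a window are thus not counted here. Peaks touched 2 of the 16 windows in each list, both at Dlg4, where Standard peaks touched 5.61% of all 32851 windows and ELS peaks 3.79%. These windows are printed with that of Dlgap4, which had the most CG pairs of the 16. Capitals mark GGGCGG, the GC box, or its reverse complement. The windows lie on the plus strand at chr11:70016953-70017252, chr11:70023732-70024031 and chr2:156720715-156721014.
Dlg4, first start: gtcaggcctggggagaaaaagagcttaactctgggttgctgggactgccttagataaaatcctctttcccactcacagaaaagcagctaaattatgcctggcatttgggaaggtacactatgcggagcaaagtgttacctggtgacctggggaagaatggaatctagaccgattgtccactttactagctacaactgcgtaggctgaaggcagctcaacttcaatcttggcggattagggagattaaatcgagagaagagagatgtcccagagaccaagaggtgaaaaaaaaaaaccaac
Dlg4, internal start: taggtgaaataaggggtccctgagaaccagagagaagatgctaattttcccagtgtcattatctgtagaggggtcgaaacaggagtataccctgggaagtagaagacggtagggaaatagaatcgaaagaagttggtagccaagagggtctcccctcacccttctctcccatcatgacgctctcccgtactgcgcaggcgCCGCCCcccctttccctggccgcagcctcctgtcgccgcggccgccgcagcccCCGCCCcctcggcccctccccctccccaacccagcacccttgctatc
Dlgap4, internal start: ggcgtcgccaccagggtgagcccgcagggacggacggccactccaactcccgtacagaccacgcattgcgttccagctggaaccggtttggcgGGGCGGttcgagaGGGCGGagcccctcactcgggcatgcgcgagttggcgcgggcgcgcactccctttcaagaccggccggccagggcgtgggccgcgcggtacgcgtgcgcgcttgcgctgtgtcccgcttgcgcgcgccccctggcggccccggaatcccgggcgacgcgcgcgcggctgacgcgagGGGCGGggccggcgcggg
The first Dlg4 window had 5 CG pairs and no GC box, and peaks covered 206 of its 300 bases with Standard peaks and 34 with ELS peaks. The second had 16 CG pairs and 2 GC boxes, and peaks covered 152 and 124 bases. The Dlgap4 window had 50 CG pairs, more than or as many as 99.3% of all windows, and 3 GC boxes, but no peak. The next Standard peak lay 1.04 kb downstream of that start and was 2.91 kb wide. Over all windows the median was 7 CG pairs, and 35.7% held a GC box on either strand. None of the 3 windows held TGACGTCA (1.79% of all windows), TATAAA (13.6%) or CACGTG (7.15%). A match is a description of the letters and not a binding site.

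The ELS list covered less of these genes than the Standard list did, as it covered less of the genome. The summed covered length was 928 kb for Standard and 596.3 kb for ELS peaks, a ratio of 0.643, against 0.735 for all peaks. Most of the Standard length lay at Dlg2 (371.7 kb) and Dlgap2 (310.3 kb), which weigh most in that ratio. All 7 genes with peaks in both lists had a ratio below 1, as did 91.5% of the 10879 genes with peaks in both lists. The ratio was 0.814 at Dlg4 and Dlgap4, 0.767 at Dlg1, 0.696 at Dlgap2, 0.57 at Dlgap3, 0.556 at Dlg2 and 0.412 at Dlgap1. The median of these 7 ratios was 0.696. Over all genes the median was 0.732 and the quartiles were 0.563 and 0.855, so that Dlg2 and Dlgap1 lay below the lower quartile, at percentiles 24.1 and 11.5. A covered length at least 1.5 times shorter in the ELS list was seen for 3 of the 7 genes (Dlgap1, Dlg2 and Dlgap3), where 38.7% of all genes passed that fold. None was 1.5 times longer, where 2.81% of all genes were. With 1 list per rearing group there is no replicate, and a shorter list cannot be told apart from a lower mark. Of the 1132 Standard peaks at the 8 genes, 683 (60.3%, exact binomial 95% interval 57.4% to 63.2%) shared at least 1 base with an ELS peak, beside 62.6% of all Standard peaks. Of the 916 ELS peaks, 833 (90.9%, 88.9% to 92.7%) overlapped a Standard peak, beside 90.8% of all ELS peaks. The intervals cover counting error only. Peaks of the Standard list alone were most numerous at Dlg2 (240) and Dlgap2 (126), and at Dlgap1 they made up 44 of 80.

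**Figure D2:**
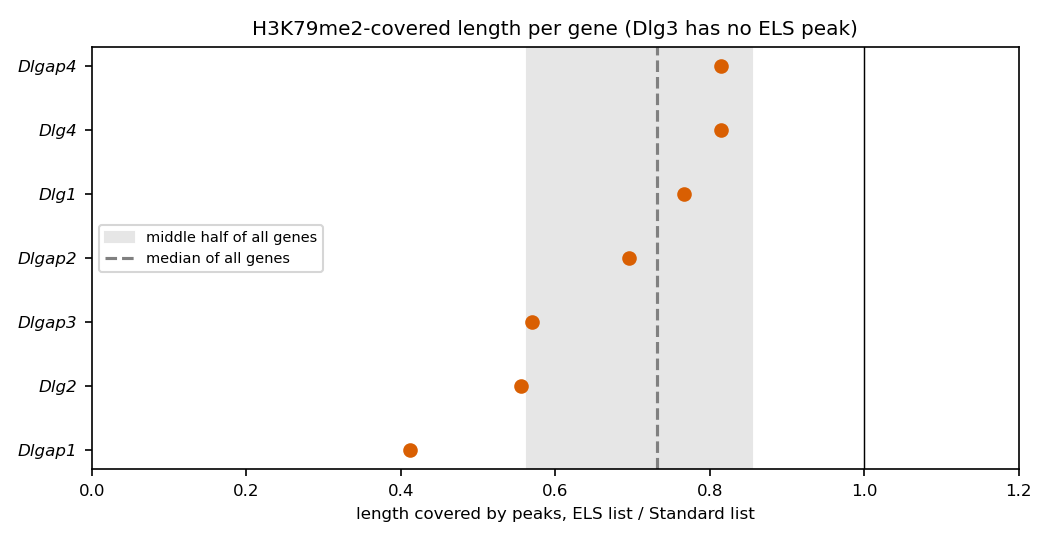
Length covered by H3K79me2 peaks in the ELS list divided by that in the Standard list (x axis), for the 7 genes with peaks in both lists (points), with the median (dashed line) and quartiles (grey band) of 10879 genes. All 7 points lie below 1, from 0.412 at Dlgap1 to 0.814 at Dlg4 and Dlgap4, and the median of all genes is 0.732.

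Library totals (M is 1e6 counts) reached from 0.314 M to 9.8 M for Standard GFP and from 1.76 M to 11.1 M for ELS GFP. They reached from 2.48 M to 7.88 M for overexpression and from 0.462 M to 8.8 M for knockdown, and 4 libraries held fewer than 1 M. Dot1l RNA, the check of the genotype labels, was at 25.2 to 75.01 CPM (counts per 1e6) in the overexpression group and 28.9 to 74.9 in the knockdown group, against 10.6 to 48.5 in Standard GFP and 15.4 to 54.2 in ELS GFP. Its difference was 0.33 ± 0.27 (log2, SE) for overexpression against Standard GFP and 0.28 ± 0.27 for knockdown against ELS GFP (edgeR's quasi-likelihood test, adjusted p = 0.741 and 0.985). The gene was thus not lower in the libraries labelled knockdown, and directions below are those of the labels. All 10 markers of medium spiny neurons were measured, and summed to a median of 1043 CPM in Standard GFP and 595.7 to 691.7 CPM in the other groups. Tubb3, Nefl, Gfap and P2ry12, defining markers of neurons, astrocytes and microglia, were listed at 0 in every library.

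Counts in the whole table rose with the length of the gene. Over 18529 protein-coding genes with a count, the total count correlated with the RefSeq gene span (Pearson r = 0.65 of the logarithms, across genes, which are not independent). Of 505 protein-coding genes that lie wholly inside another gene, 83.8% had 5 or fewer counts in all 32 libraries together, against 16.3% of 17340 genes that overlap no other. No source used here says which part of a gene was counted. No other protein-coding gene of RefSeq overlaps any of the 8 genes. Levels of different genes were therefore compared per kb of gene span, which is not the length of the mature transcript.

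Per kb of span Dlg4 was the highest of the 8 genes, with a median over 32 libraries of 6.29 CPM per kb (3.58 to 23.1). Dlgap3 followed with 1.42 (0.789 to 4.26), and the lowest Dlg4 library lay within the Dlgap3 range. Then came Dlgap4 at 0.875, Dlgap1 at 0.87, Dlg3 at 0.852, Dlgap2 at 0.765, Dlg2 at 0.699 and Dlg1 at 0.485 CPM per kb. These 6 did not separate beyond their spread: Dlgap1 alone ran from 0.335 to 1.86. Percentiles among protein-coding genes with a count were taken from the mean CPM per kb by library totals alone. There all 8 stood above most genes, from percentile 72.8 for Dlg1 to 98.7 for Dlg4. In CPM, without length, the order was led by the genes of the greatest span, Dlg2 (mean 1470 CPM, 1973 kb), Dlgap1 (794.6 CPM, 852.3 kb) and Dlgap2 (596.2 CPM, 757.7 kb). Dlg4 was an exception to the order of length. It had the shortest span (28.33 kb) and a mean of 207.2 CPM, above the 117.3 CPM of Dlg1 with 209.9 kb. The order per kb was not that of the H3K79me2 coverage: Dlg1 was lowest per kb and second in coverage, and Dlgap1 was at 0.87 CPM per kb with 5.2% of its length covered.

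The level of each gene in the 4 groups is given in CPM, scaled by the trimmed mean of M-values (TMM), as the lowest, the median and the highest of 8 libraries. A few libraries set the highest values. Standard GFP replicate 6 and Standard Dot1l overexpression replicate 1 have the smallest TMM factors of the study (0.565 and 0.53, against 0.827 to 1.55 in the other 30), which multiplies their scaled levels, so levels scaled by library totals alone are given for them as well. ELS GFP replicate 2 held the highest Dlg3 and Dlgap3 of all 32 libraries.

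Dlg1 lay between 76.6 and 528 CPM in Standard GFP (median 118), 81.1 and 137 in ELS GFP (median 105.5), 77.1 and 136 in Standard Dot1l overexpression (median 92.5) and 75.6 and 118 in ELS Dot1l knockdown (median 93.2). Standard GFP replicate 6 alone gave 39.4% of its group's summed level, and the next library stood at 178 CPM. By library totals it was at 297.3 CPM and still the highest. The ranges of all 4 groups overlapped.

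Dlg2 lay between 985.4 and 2849 CPM in Standard GFP (median 1541), 1176 and 2109 in ELS GFP (median 1529), 764.6 and 2566 in Standard Dot1l overexpression (median 1138) and 979.7 and 1864 in ELS Dot1l knockdown (median 1402). The groups overlapped, and 7 of the 8 overexpression libraries were below the Standard GFP median. Standard GFP replicate 6 was at 1606 CPM by library totals alone, below replicate 4 of its group at 2355. The overexpression library above that median, replicate 1, was the highest of its group at 2566 CPM; by library totals it was at 1355 CPM and within the range of its group.

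Dlg3 lay between 31.8 and 162 CPM in Standard GFP (median 42.6), 40.7 and 269 in ELS GFP (median 45.1), 34.6 and 64.9 in Standard Dot1l overexpression (median 50.1) and 26.0 and 49.3 in ELS Dot1l knockdown (median 38.3). A single library lay far above the rest in each GFP group: replicate 1 in Standard GFP, where the next was 58.9 CPM, and replicate 2 in ELS GFP, where the next was 65.9 CPM and 44.1% of the group's summed level came from that library. The medians of the 4 groups were close beside these values.

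Dlg4 lay between 101 and 654 CPM in Standard GFP (median 205), 139 and 298 in ELS GFP (median 188), 113 and 537 in Standard Dot1l overexpression (median 183) and 122 and 196 in ELS Dot1l knockdown (median 161). All 8 knockdown libraries were below the Standard GFP median, and the ranges still overlapped. By library totals alone Standard GFP replicate 6 was at 368.7 CPM, with a neighbour at 338.9, and overexpression replicate 1 at 283.4 CPM, and the knockdown libraries remained the narrowest group, from 134 to 186.8 CPM.

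Dlgap1 lay between 357 and 1450 CPM in Standard GFP (median 734), 594 and 1166 in ELS GFP (median 771.5), 285.5 and 1588 in Standard Dot1l overexpression (median 737) and 548 and 1082 in ELS Dot1l knockdown (median 720). The medians of the 4 groups were close beside these ranges. By library totals alone overexpression replicate 1 was at 838.6 CPM, below replicate 2 of its group at 917.4.

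Dlgap2 lay between 395 and 792 CPM in Standard GFP (median 590), 501 and 782 in ELS GFP (median 647), 330 and 1037 in Standard Dot1l overexpression (median 515) and 378 and 779 in ELS Dot1l knockdown (median 589). Its overexpression libraries were below the Standard GFP median in 7 of 8, as for Dlg2. By library totals alone overexpression replicate 1 was at 547.6 CPM, within the range of its group.

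Dlgap3 lay between 84.9 and 195.5 CPM in Standard GFP (median 117), 54.2 and 292.5 in ELS GFP (median 97.6), 72.0 and 123 in Standard Dot1l overexpression (median 96.2) and 62.3 and 133 in ELS Dot1l knockdown (median 85.0). In ELS GFP 7 of 8 libraries were below the Standard GFP median and the eighth, replicate 2, was the highest of the study.

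Dlgap4 lay between 107 and 399 CPM in Standard GFP (median 135.5), 101 and 148 in ELS GFP (median 134), 104 and 176 in Standard Dot1l overexpression (median 129) and 91.7 and 157.5 in ELS Dot1l knockdown (median 120). Standard GFP replicate 6 was the highest, with its next neighbour at 145 CPM. By library totals alone it was at 225.1 CPM with a neighbour at 200.5, and knockdown replicate 7 was at 216.4 CPM. The ranges of all 4 groups overlapped on both scales.

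**Figure D3:**
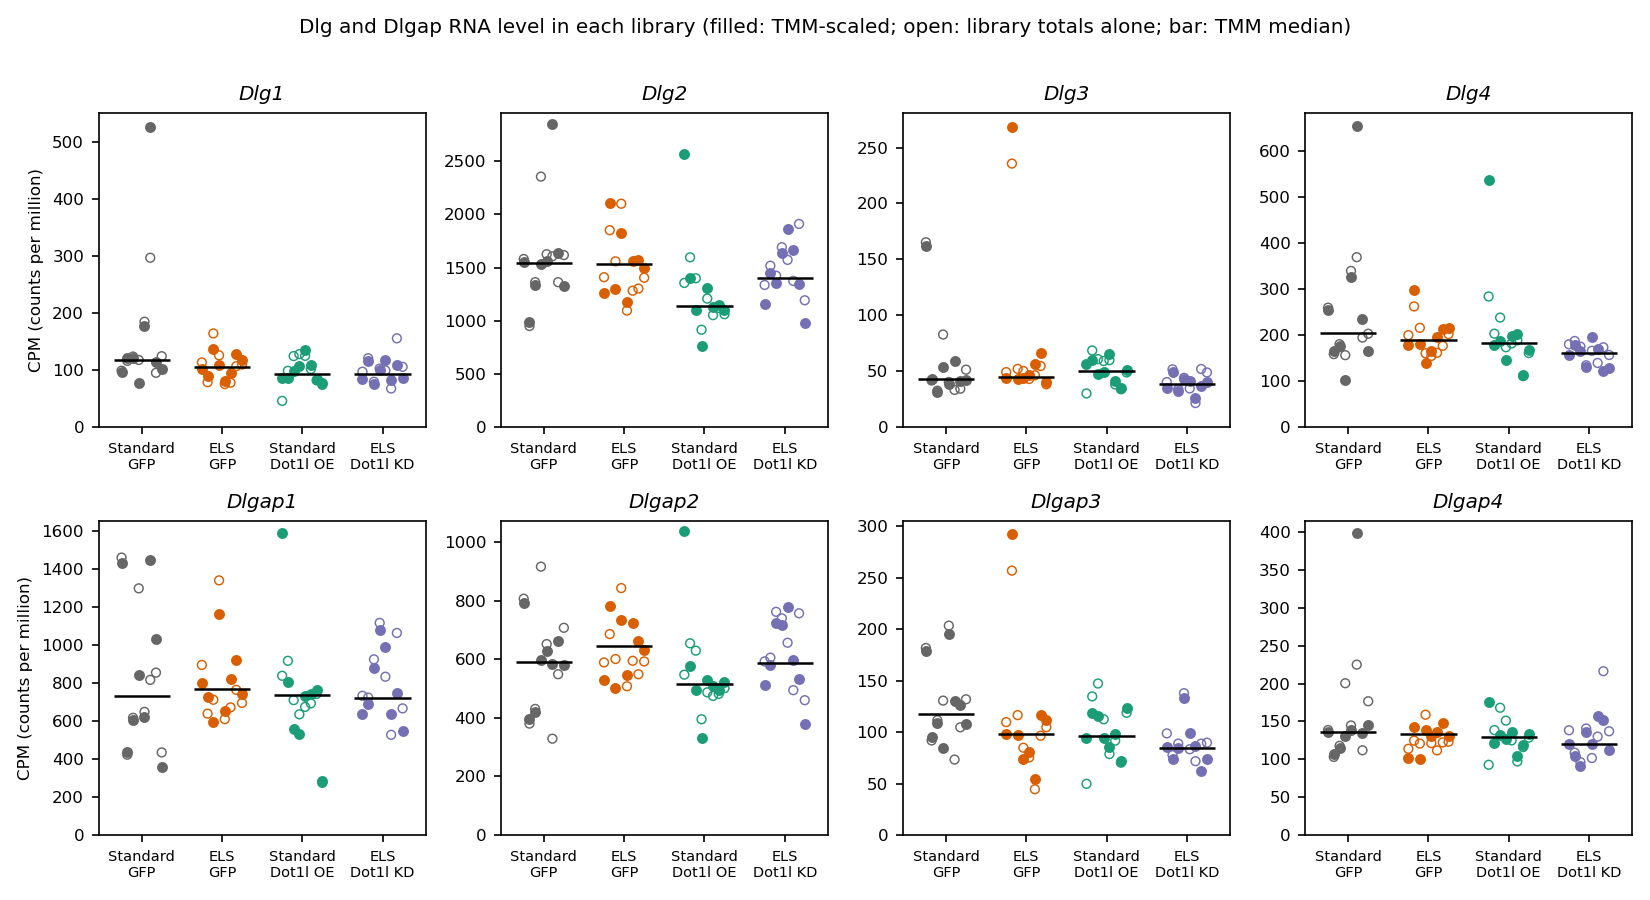
CPM of each gene (y axis, linear from 0) in the 8 libraries of each group (x axis; OE is overexpression, KD is knockdown), scaled by TMM (filled points) and by library totals alone (open points), with the TMM median of the group (bar). The groups overlap in every panel, and single libraries such as the 528 CPM of Dlg1 in Standard GFP lie far above the rest.

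No member passed the threshold in the first comparison, which sets ELS GFP against Standard GFP and asks how stressed and unstressed mice differ under the control construct. The count of members with an adjusted p under 0.05 was 0 of 8 in edgeR, DESeq2 and limma voom, and edgeR called 0% of the 14016 genes (DESeq2 called 73 and voom 0). At an unadjusted p under 0.05, 1 member was lower and none higher, where 7.73% of all genes were lower and 4% higher. That member was Dlg1, at -0.64 ± 0.26 (log2, SE; unadjusted p = 0.0187, edgeR adjusted p = 0.289), with 6 of 8 ELS libraries below the Standard GFP median. Without Standard GFP replicate 6 the difference was -0.10 (adjusted p = 0.938). The other 7 members lay between -0.39 ± 0.28 (Dlg4) and 0.36 ± 0.33 (Dlg3), and the difference of Dlg3 was -0.26 without ELS GFP replicate 2 and 0.79 without Standard GFP replicate 1. Without Standard GFP replicate 6, Dlg4 was at -0.03 and Dlgap4 went from -0.35 ± 0.20 to -0.01. Dlgap3 moved from -0.15 ± 0.24 to -0.50 without ELS GFP replicate 2 (edgeR adjusted p = 0.366). In all 6 members were lower and 2 higher, where 51.18% of all genes were lower. The median of the members was -0.12, beside -0.01 for all genes. With 1 library left out, 4 to 7 members were lower and the median ran from -0.32 to 0.04, and voom gave 4 lower and 4 higher. Cell type markers gave these counts between the same groups: 9 of 10 medium spiny neuron markers, 8 of 8 measured astrocyte markers, 8 of 8 oligodendrocyte markers and 6 of 6 measured microglial markers were lower in ELS GFP, none past the adjusted threshold. Of the other lists, 3 of 4 measured general neuron markers and 2 of 4 oligodendrocyte precursor markers were lower, and 3 of 4 endothelial markers were higher. The summed level of the medium spiny neuron list ran from 500.6 to 2280 CPM in Standard GFP and from 505.9 to 1559 CPM in ELS GFP. The part of these markers in the differences of the scaffold genes was not tested. In bulk tissue fewer cells of a type and less RNA per cell cannot be told apart.

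All 8 members had a fitted difference below 0 in Standard Dot1l overexpression against Standard GFP, the comparison that asks what raising Dot1l does to mice without stress, and again none passed. The count was 0 of 8 by edgeR, DESeq2 and voom. Over all genes edgeR called 0%, DESeq2 37 genes and voom 0. At an unadjusted p under 0.05, Dlg1 was lower and none was higher, where 6.28% of all genes were lower and 4.59% higher. The difference of Dlg1 was -0.78 ± 0.26 (log2, SE; unadjusted p = 0.00536, edgeR adjusted p = 0.219) and -0.23 without Standard GFP replicate 6 (adjusted p = 0.784). The log2 ratio of its group medians was -0.35. For Dlg3 that ratio was 0.23, with 6 of 8 overexpression libraries above the Standard GFP median, and for Dlgap1 it was 0.01, with 4 above and 4 below. Without Standard GFP replicate 1, the fitted difference of Dlg3 went from -0.21 to 0.21 and that of Dlgap2 from -0.05 to 0.05. Without Standard GFP replicate 6, Dlg4 was at 0.09 and Dlgap4 at 0.02. Without Standard Dot1l overexpression replicate 1, Dlg2 moved from -0.28 ± 0.20 to -0.48 and Dlg4 from -0.27 ± 0.28 to -0.61 (edgeR adjusted p = 0.395 and 0.438). Of all tested genes, 48.54% had a difference below 0. The 8 members share their libraries and several vary together, so they are not 8 independent results. The median of the members was -0.27, beside 0.02 for all genes. Of the markers, 9 of 10 for medium spiny neurons and 8 of 8 for oligodendrocytes were lower as well. So were 6 of 8 measured astrocyte markers, 4 of 6 measured microglial markers and 3 of 4 each of the measured general neuron, oligodendrocyte precursor and endothelial markers. The part of these markers was not tested. With the 3 libraries named above left out together, all 8 were still lower, with a median of -0.22 and values from -0.31 for Dlgap3 to -0.04 for Dlgap4.

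In ELS Dot1l knockdown against ELS GFP, the comparison that asks what lowering Dot1l does after stress, the members lay between -0.99 and -0.05 and 0 of 8 passed by edgeR, DESeq2 or voom. Over all genes edgeR called 0%, DESeq2 1 gene and voom 0. At an unadjusted p under 0.05, Dlg3 was lower and none was higher, where 3.95% of all genes were lower and 2.23% higher. Its difference was -0.99 ± 0.33 (log2, SE; unadjusted p = 0.00541, edgeR adjusted p = 0.468), and 7 of 8 knockdown libraries were below the ELS GFP median. Without ELS GFP replicate 2 it was -0.36 (adjusted p = 0.999), and that of Dlgap3 went from -0.39 ± 0.24 to -0.04. The median of the 8 members was -0.13, beside 0.00 for all genes, of which 49.79% were lower. In the same comparison 8 of 10 medium spiny neuron markers and 6 of 6 measured microglial markers were higher, as were 5 of 8 measured astrocyte markers. Lower were 4 of 4 endothelial markers, 3 of 4 measured general neuron markers, 4 of 8 oligodendrocyte markers and 2 of 4 oligodendrocyte precursor markers. The part of these markers was not tested. Scaled by library totals alone, 4 members were lower and 4 higher, where 37.7% of all genes were lower. The median of the members was then -0.03, beside 0.11 for all genes. The count below 0 thus hung on the scaling, while the members' median lay below that of all genes on both scales.

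**Figure D4:**
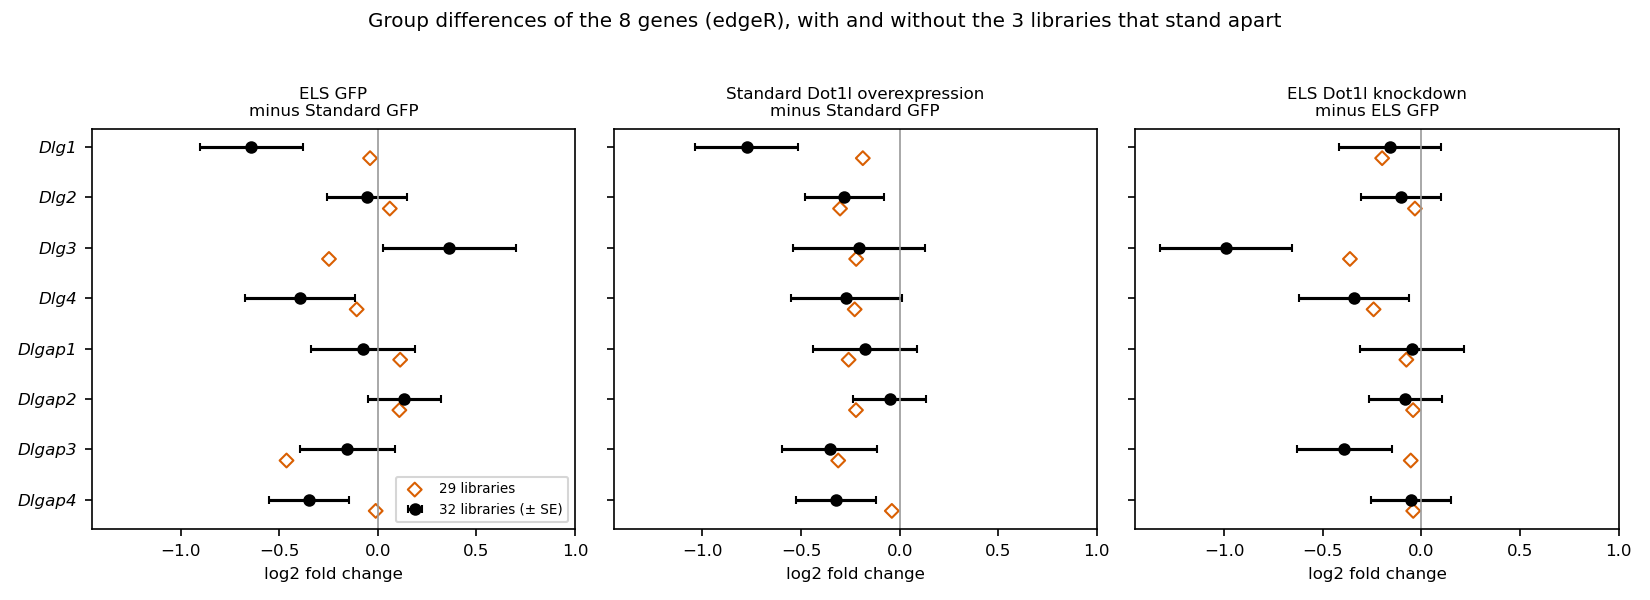
Log2 fold change of each gene (x axis) in 3 comparisons (panels), from edgeR with all 32 libraries (black points, bars are ± SE) and without Standard GFP replicate 6, Standard Dot1l overexpression replicate 1 and ELS GFP replicate 2 (open diamonds, 29 libraries). Dlg1 in the first panel is at -0.64 and then -0.04, and Dlg3 in the third at -0.99 and then -0.36.

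A further pair of comparisons crossed the rearing conditions. These share libraries with the comparisons above and are not independent of them. In ELS Dot1l knockdown against Standard GFP edgeR called 0 members and 0% of all genes (DESeq2 0 members and 88 genes), and 3 members were lower at an unadjusted p under 0.05, where 7.7% of all genes were. They were Dlg1 (-0.80 ± 0.26 and -0.26 without Standard GFP replicate 6), Dlg4 (-0.74 ± 0.28 and -0.38) and Dlgap3 (-0.55 ± 0.24 and -0.54), with edgeR adjusted p of 0.195, 0.289 and 0.39 on all libraries. In Standard Dot1l overexpression against ELS GFP edgeR called 0 members and 0% of all genes (DESeq2 0 members and 1 gene), and no member had an unadjusted p under 0.05, where 6.68% of all genes had one. The test for any difference among the 4 groups called 0 members by edgeR, DESeq2 and voom, and 1.27% of all genes (178) by edgeR, 174 by DESeq2 and 0 by voom. At an unadjusted p under 0.05 it held Dlg1 and Dlg3 (p = 0.00902 and 0.0403, edgeR adjusted p = 0.185 and 0.37), where 12.4% of all genes did. For every member the ranges of all groups overlapped. How many of the other tested genes share this was not computed, so it is not read as a trait of the members.

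Across the 32 libraries the members of greatest span varied together. Spearman's rho of log2 CPM was 0.869 between Dlg2 and Dlgap2, and 0.717 between Dlgap1 and either of them. It was 0.613 between Dlg2 and Dlgap4 and 0.588 between Dlg4 and Dlgap3. The values of Dlg1 ran from -0.073 with Dlgap2 to 0.43 with Dlg4, and Dlg3 had its highest value, 0.399, with Dlg4. These are descriptions over libraries that share groups, depth differences and scaling. The tested genes most like each member over the same libraries were Kcnma1 (0.871) for Dlg2, Kcnd3 (0.896) and Dscam (0.869) for Dlgap1, and Grin2a (0.878) for Dlgap2, and Dlg2 and Dlgap2 were second to each other. They were Kif1a (0.819) and Sez6l (0.806) for Dlg4, Dbn1 (0.752) and Cacna1a (0.734) for Dlgap3, Cnst (0.727) and Galnt18 (0.69) for Dlgap4, Map9 (0.694) and Nckap1 (0.69) for Dlg1, and Flot1 (0.649) and Gm16582 (0.635) for Dlg3. Kcnma1 and Kcnd3 encode potassium channels, Grin2a an NMDA receptor subunit and Dbn1 the actin-binding drebrin of dendritic spines.

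**Figure D5:**
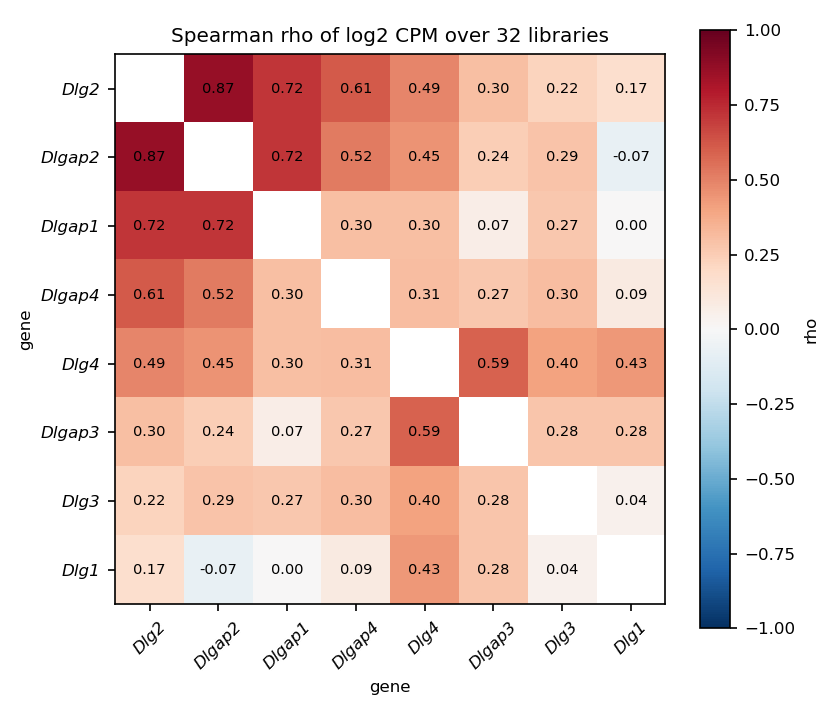
Spearman's rho of log2 CPM over 32 libraries for each pair of genes (both axes; colour and printed value give rho). Dlg2, Dlgap2 and Dlgap1 form the block of highest values, 0.717 to 0.869, and the values of Dlg1 run from -0.073 to 0.43.

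The partners of these scaffolds were measured in 8 lists of 65 genes, of which 62 were tested. Lrrtm2 and Lrrc4 were listed at 0 and Zdhhc8 had 1 count in all. None of the 62 passed the threshold in edgeR in ELS GFP against Standard GFP, overexpression against Standard GFP or knockdown against ELS GFP. In ELS GFP against Standard GFP 41 were lower and 21 higher, with a median of -0.08, where 51.18% of all genes were lower. At an unadjusted p under 0.05, 6 of 62 were lower and none higher, where 7.73% of all genes were lower and 4% higher. Among them Cacng2, which encodes stargazin, the subunit through which DLG proteins hold AMPA receptors, was at -0.86 ± 0.32, Grin1, the obligatory NMDA receptor subunit, at -0.65 ± 0.27, the cell adhesion gene Nlgn2 at -0.63 ± 0.31 and Baiap2, an actin regulator that binds PSD-95, at -0.60 ± 0.21 (edgeR adjusted p from 0.21 to 0.414). Without Standard GFP replicate 6, Cacng2 was at -0.15, Grin1 at -0.29 and Nlgn2 at -0.11, while Baiap2 was at -0.47. The kinesin gene Kif13b, whose product binds DLG1, was at -1.05 ± 0.31 with all libraries and at -0.33 without Standard GFP replicate 1.

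In Standard Dot1l overexpression against Standard GFP 50 partners were lower and 12 higher, with a median of -0.13 beside 0.02 for all genes. Of all genes 48.54% were lower. At an unadjusted p under 0.05, 7 of 62 were lower and 1 higher, where 6.28% of all genes were lower and 4.59% higher. Cacng2 was lowest of the glutamate receptor partners, at -1.17 ± 0.32 (edgeR adjusted p = 0.145), with 45.7% of the Standard GFP level in 1 library and a difference of -0.45 without replicate 6 of that group. Homer1, the scaffold layer beneath SHANK, was at -0.72 ± 0.29 (edgeR adjusted p = 0.327) and at -0.52 without that library. All 6 genes of the Shank and Homer list had a fitted difference below 0, with a median of -0.12. The log2 ratio of group medians was above 0 for Shank2 (0.30) and Homer2 (0.26) and below 0 for the others. Abhd17b, a depalmitoylating enzyme that acts on PSD-95, was higher at 1.02 ± 0.41, and at 0.16 without Standard Dot1l overexpression replicate 1.

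In ELS Dot1l knockdown against ELS GFP 43 partners were lower and 19 higher, with a median of -0.12. Of all genes 49.79% were lower. At an unadjusted p under 0.05, 1 of 62 was higher and none lower, where 2.23% of all genes were higher and 3.95% lower. It was Cript, a small protein that binds the third PDZ domain of PSD-95, higher at 0.98 ± 0.36 (edgeR adjusted p = 0.566) from a mean of 4.52 CPM, and at 0.55 without ELS Dot1l knockdown replicate 3. All 6 Shank and Homer genes were again lower (median -0.30), with the lowest p for Homer1 (-0.51 ± 0.29, unadjusted p = 0.089) and Shank1 (-0.37 ± 0.25, unadjusted p = 0.144). For Homer1 1 library held 38.1% of the ELS GFP level, and the log2 ratio of its group medians was 0.02. In the same comparison all 7 tested adhesion partners were lower (median -0.14). So were 9 of 11 signalling enzymes, 7 of 11 tested glutamate receptor partners and 7 of 10 membrane guanylate kinase relatives. Of the transport partners 4 of 8 were lower, of the tested palmitoylation enzymes 3 of 7, and the 2 family paralogs were higher. These counts were not repeated by library totals alone, where 37.7% of all genes were lower. Of the family paralogs, Dlgap5, a mitotic gene with a mean of 1.88 CPM in ELS GFP, was at -3.60 ± 0.98 for ELS GFP against Standard GFP with 94.5% of the Standard GFP level in replicate 6, and at 0.20 without it. Dlg5 was at -0.47 ± 0.24 in that comparison (edgeR adjusted p = 0.451).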

How the data were processed

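RNA of 32 libraries was given as a table of read counts per gene, which the authors deposited with no normalization. HISAT2, featureCounts, DESeq2, FastQC and the mm10 build are named in the submitters' processing notes, without their roles, and no source used here states the counting rule. The peaks are in 2 deposited lists, 1 for each rearing group, with a fold (a ratio) and a q-value for each peak from the authors; no source used here names the caller or what the fold is relative to. Repeated lines of a peak were merged.

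From the counts, edgeR 4.0.16 in R 4.3.3 filtered low genes (filterByExpr), scaled libraries by TMM and fitted 1 quasi-likelihood model to all 32 libraries (28 residual degrees of freedom), with Benjamini-Hochberg adjustment over 14016 genes and a threshold of 0.05. The log2 CPM values behind the correlations used a prior count of 2, and fold changes used edgeR's default. Each SE is the size of the log2 fold change divided by the square root of the test's F statistic. It comes from the test itself and was not estimated apart from it. The tests were checked on simulated counts. These held no library that stands apart, so the check does not cover the effect of such libraries. Alternatives were RLE scaling, no filter, DESeq2 1.42.0, limma voom 3.58.1, a block on the number in the sample titles, leaving out libraries under 1 M counts and leaving out each library in turn. Scaling by library totals and leaving out 3 libraries were chosen after seeing the data. Peaks shared between lists overlapped by at least 1 base, and Python 3.11.15 computed covered lengths. Promoter sequences are RefSeq's. Partner genes could be named where they had 1 of the 2 smallest p in their list and comparison, and those with an unadjusted p under 0.05 were preferred after their values were seen. Peaks named are those of highest fold or over a start, and genes of like pattern are, for each member, the 2 tested genes with the highest Spearman's rho. The members and lists were chosen with earlier results of these data known.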

Additional observations from a re-analysis of the deposited data

Results flagged for a closer look

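In 12 of 32 sets of 8 libraries (8 genes in 4 groups), the highest library lay far enough from its neighbour to pass Dixon's test of the gap as a share of the range. Chance passes about 1 in 20 sets of normally distributed values. CPM on a linear scale need not be so distributed, so that rate is a rough guide, and the 8 genes share their libraries. Standard GFP replicate 6 stood out for Dlg1 (527.5 CPM, next 177.9), Dlg2 (2849 CPM, next 1641), Dlg4 (654.1 CPM, next 325.8) and Dlgap4 (399.4 CPM, next 144.9). Standard Dot1l overexpression replicate 1 stood out for Dlg2 (2566 CPM, next 1403), Dlg4 (536.6 CPM, next 201.7), Dlgap1 (1588 CPM, next 806.6), Dlgap2 (1037 CPM, next 575.6) and Dlgap4 (175.7 CPM, next 135.6). ELS GFP replicate 2 stood out for Dlg3 (268.6 CPM, next 65.87) and Dlgap3 (292.5 CPM, next 116.4), and Standard GFP replicate 1 for Dlg3 (162.2 CPM, next 58.91).

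Scaled by library totals alone, the gap still passed for Dlg1 in Standard GFP replicate 6 (0.556), Dlg3 in Standard GFP replicate 1 (0.622), Dlg3 in ELS GFP replicate 2 (0.917) and Dlgap3 in ELS GFP replicate 2 (0.661), and for none of the other 8. The Dlg3 value of Standard GFP replicate 1 rests on 162 counts, and that of ELS GFP replicate 2 on 416.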

How the results depend on the processing

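No member passed an adjusted p of 0.05 in any comparison under the 9 alternatives or with any of the 32 libraries left out. Genes called over the whole table moved more: DESeq2 called 73 for ELS GFP against Standard GFP, 37 for overexpression against Standard GFP, 88 for knockdown against Standard GFP, and 1 each for knockdown and overexpression against ELS GFP. Without libraries under 1 M counts the first pair of comparisons gave 7 and 18. For any difference among the 4 groups the 178 genes became 901 with no filter, 0 by voom, 0 by library totals and 0 without the 3 libraries that stand apart, and 20 to 278 with 1 library left out. Leaving out 1 library gave 0 to 15 for knockdown against Standard GFP.

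No pairing by title number was seen: the median correlation of deviations was 0.023 for same numbers (90 pairs) and -0.013 for different ones (294 pairs). Such a median over all pairs does not exclude pairing or a batch. With the number as a replicate block 0 members were called, any difference gave 0 genes, and Dlg2 turned to 0.012 for ELS GFP against Standard GFP.

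Directions turned for several members and for Dlgap5, whose differences with all libraries were -3.60 and -3.58. For ELS GFP against Standard GFP, DESeq2 gave Dlg3 -0.30 and Dlgap5 0.23. Voom gave Dlg2 0.0486, Dlg3 -0.0062, Dlg4 0.0178, Dlgap1 0.25 and Dlgap5 0.0934. Without shallow libraries Dlgap1 was 0.0656 and Dlgap3 0.0204, and without the 3 libraries Dlg2 was 0.0607, Dlg3 -0.25, Dlgap1 0.11 and Dlgap5 0.31. For overexpression against Standard GFP, Dlgap5 was 0.29 by DESeq2, 0.33 by voom and 0.36 without the 3 libraries, Dlgap1 0.0105 by voom, and without shallow libraries Dlg3 was 0.23 and Dlgap2 0.10. For knockdown against ELS GFP, Dlgap4 was 0.034 by voom, and library totals gave Dlg2 5e-04, Dlgap1 0.0563, Dlgap2 0.0286 and Dlgap4 0.0886. With 1 library left out, ELS GFP against Standard GFP ran from -0.13 to 0.12 for Dlg2, -0.26 to 0.79 for Dlg3, -0.19 to 0.0819 for Dlgap1 and -4.18 to 0.20 for Dlgap5. Overexpression ran from -0.30 to 0.21 for Dlg3, -0.61 to 0.0913 for Dlg4, -0.23 to 0.0478 for Dlgap2, -0.39 to 0.0204 for Dlgap4 and -3.83 to 0.25 for Dlgap5, and knockdown against ELS GFP from -0.13 to 0.0462 for Dlgap1. The cause was not tested.

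Keeping peaks with a fold of at least 1.94 left 47.5% of the members' Standard peaks and 84.0% of their ELS peaks shared, and asking for 50% overlap left 56.7% and 86.6%. The shares of all peaks under these settings were not computed, so these drops cannot be read as a trait of the members. Under that fold limit the Standard list covered 236.8 kb of Dlg2, 0 of Dlg3 and 19.54 kb of Dlgap1, and the ELS list 95.64 kb of Dlg2, 6.696 kb of Dlgap1 and 4.112 kb of Dlgap3.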
